A study of Mus musculus with 10 samples.

Results

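The 10 RNA sequencing libraries of mSCLC-2405 cells are taken here as 2 sets. The set described here holds 4 of the 10, which are controls 4 and 5 and stiripentol 1 and 2. They were picked by their names in the deposited table, after the 2 sets had been noticed in its values. The study grew mSCLC-2405, a mouse small cell lung cancer line taken from a primary tumor, in RPMI medium with 10% FBS, and exposed it to 250 μM stiripentol or to DMSO for 48 h. It asked how this antiseizure drug acts on the mitochondria and growth of tumor cells. The other 6 libraries are controls 1 to 3 and stiripentol 3 to 5, from the same line, drug and time. All 10 come from 1 line, which was grown from dissociated lung tumor cells of a mouse model with conditional loss of tumor suppressor genes after Adeno-Cre virus, and other cells of the tumor were not sorted out in the methods. On the kit the sources differ, with Lexogen QuantSeq for 3′ mRNA in the methods and TruSeq total RNA in the records. Nothing in the records says whether the libraries of a treatment were separate cultures, so the p-values measure the spread between these libraries only, and n = 2 on each side.

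Stiripentol is prescribed against seizures and is known to act on GABA-A receptors and on lactate dehydrogenase. In respiring cells, complex I of the respiratory chain oxidizes NADH and passes the electrons to ubiquinone, and its core hydrophobic subunits are encoded by mitochondrial DNA. Stress on mitochondria or on amino acid supply is relayed by phosphorylation of the initiation factor eIF2α, which raises translation of the transcription factor ATF4, and ATF4 then induces genes of amino acid transport and synthesis, tRNA charging and one-carbon metabolism. Cholesterol supply is governed by SREBP factors, antioxidant genes by NRF2, and the first wave of transcription after growth factors by the immediate early genes.

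The values are log2 CPM, the log2 of a gene's reads after scaling by library size, and a change is the mean log2 CPM of stiripentol 1 and 2 minus that of controls 4 and 5. The 4 libraries held 63607057, 22375625, 60670901 and 57977596 reads in that order, and control 5 was the shallowest of all 10. Across the 12306 genes tested, controls 4 and 5 correlated at 0.990 and stiripentol 1 and 2 at 0.995, and since the set was noticed in these levels this closeness is no independent result. Stiripentol 1 and 2 correlated at 0.881 to 0.904 with their own controls and at 0.922 to 0.938 with stiripentol 3 to 5. Controls 4 and 5 correlated at 0.920 to 0.939 with controls 1 to 3 and at 0.932 to 0.938 with stiripentol 3 to 5. The control pair and the stiripentol pair of the set were thus each further from the other than from stiripentol 3 to 5. Neither pair was a copy of 1 library, with a chi-square per gene of 22.2 and 31.1 where read counting alone gives about 1. The label of small cell lung cancer was checked against markers. In each of the 4 libraries Insm1, a neuroendocrine factor, had at most 3 reads and the Notch ligand gene Dll3 at most 2. The neural adhesion molecule Ncam1 was at 6.56 to 7.06 log2 CPM, and the mesenchymal markers Vim and Fn1 were above it in each library. Epcam, an epithelial marker, had at most 1 read. Other epithelial genes were expressed, and of the 24 listed for epithelial junctions and keratins 14 were tested. Their mean level was 6.08 and 6.15 log2 CPM in controls 4 and 5 and 5.46 and 5.47 in stiripentol 1 and 2. Pou2f3, the tuft-lineage factor, had 260 and 101 reads in controls 4 and 5 and 5 and 3 in stiripentol 1 and 2, and it was below the level needed for testing. Avil, another gene of the tuft-lineage list, went the other way and rose by 5.42. The leukocyte marker Lyz2 had 16 to 42 reads, and of the erythroid and endothelial markers none reached the level needed for testing. Of the lung epithelium markers 1 was tested, the ciliated-cell factor Foxj1, which was 3.80 and 3.94 log2 CPM in controls 4 and 5 and 0.47 and 0.55 in stiripentol 1 and 2, and the summed level of that list was 14.5 and 16.4 CPM in the controls and 1.88 and 1.83 CPM with stiripentol.

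The change with stiripentol was broad. Of 12306 genes with a mean log2 CPM above 0, 5726 (46.5%) were lower and 3158 (25.7%) were higher at an adjusted p under 0.05 by limma with Benjamini-Hochberg adjustment. At 2-fold or more, 3050 (24.8%) were lower and 757 (6.15%) were higher, which TMM scaling moved to 2378 (19.3%) and 1322 (10.7%) and quantile normalization to 1854 (15.1%) and 1565 (12.7%). The median gene changed by -0.25 on the scale as deposited and by -0.0083 after TMM scaling, which gave 4705 genes lower (38.2%) and 4424 higher (35.9%), and quantile normalization gave 4256 lower (34.6%) and 4736 higher (38.5%). The excess of lower over higher genes therefore depended on the scaling, and medians below are to be read against the all-gene median of -0.25, as counts of list members are against the 46.5% of all genes that fell and the 25.7% that rose. An exact permutation test of a single gene with 2 libraries on each side cannot reach the threshold, so the calls rest on the spread shared across genes. In RNA from a culture, fewer cells of a kind and less RNA per cell cannot be told apart.

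**Figure D1:**
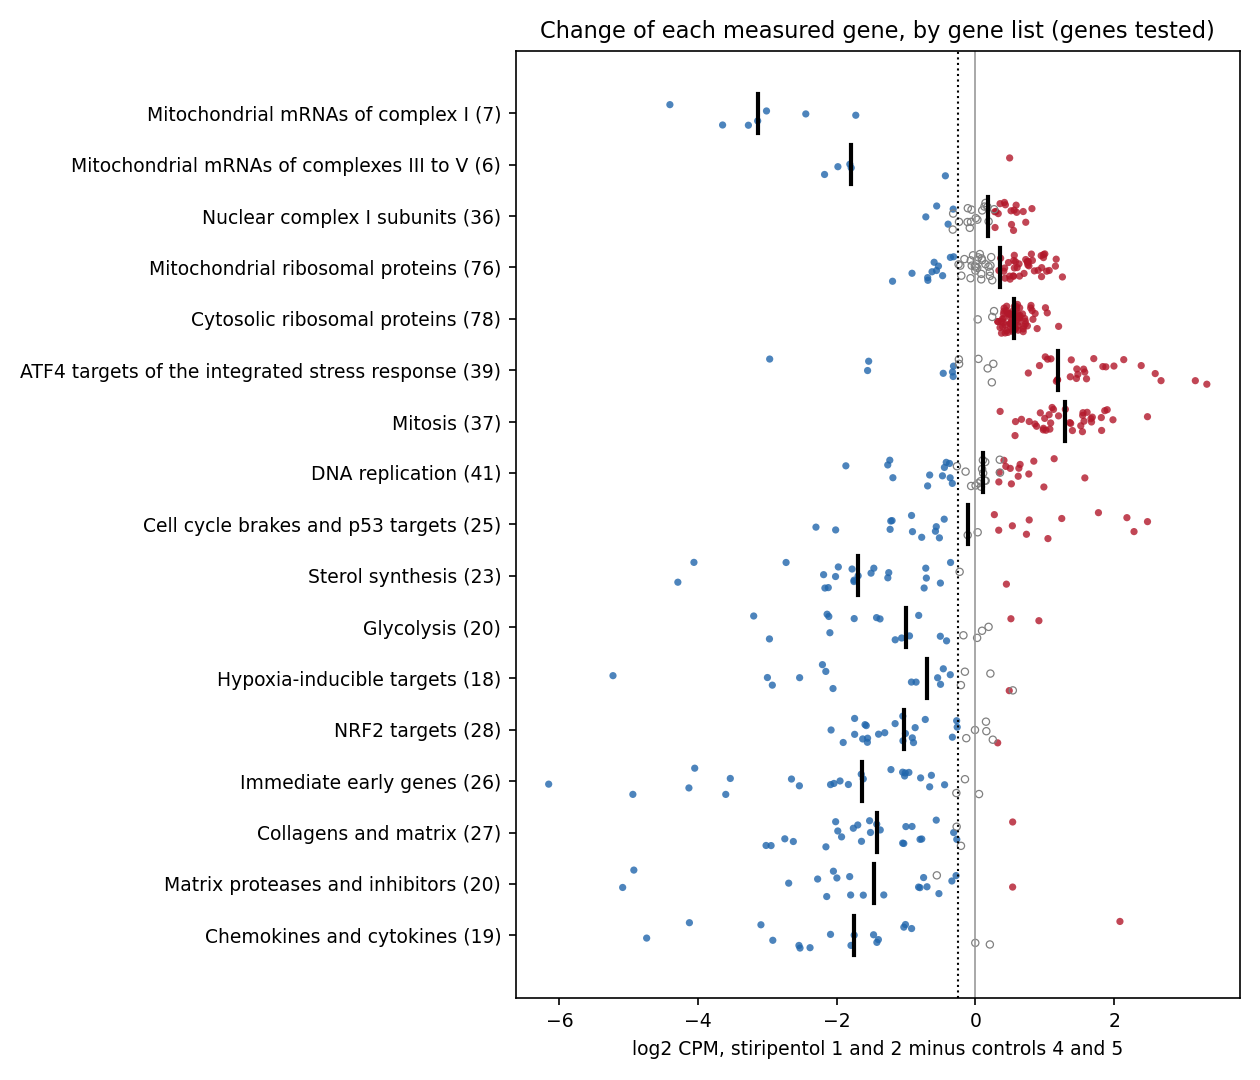
Change of each tested gene with stiripentol in log2 CPM (x axis), 1 dot per gene, for 17 gene lists (y axis, number tested in brackets). Blue dots are genes called lower, red dots genes called higher and open dots genes not called, black bars are list medians and the dotted line is the all-gene median of -0.25; the mitotic genes lie wholly to the right of 0, and the complex I mRNAs of mitochondrial DNA wholly to the left.

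The mRNAs that mitochondrial DNA encodes for complex I were all lower, and those of the other complexes were mixed. mt-Nd1, the subunit next to the ubiquinone site, was 9.71 and 9.22 log2 CPM in controls 4 and 5 and 6.11 and 6.27 in stiripentol 1 and 2, a change of -3.27 ± 0.14 (SE) with an adjusted p of 2.83e-08. mt-Nd2, a proton-pumping subunit, was 8.80 and 8.42 log2 CPM in controls 4 and 5 and 5.40 and 5.55 in stiripentol 1 and 2, and its change was -3.14 ± 0.13 (SE). mt-Nd3, also of the membrane arm, was 6.66 and 5.33 log2 CPM in controls 4 and 5 and 0.89 and 2.29 in stiripentol 1 and 2, so that its control and stiripentol values lay over 3 log2 units apart but each pair was wide. All 7 complex I mRNAs were called lower (background 46.5%), with changes from -4.41 to -1.73, with a median of -3.14 (-2.90 after TMM). Of the 6 mRNAs of complexes III to V, 5 were called lower and 1 higher. mt-Cytb, of complex III, changed by -2.18 ± 0.11 (SE), mt-Co3 by -1.79 ± 0.19 (SE), and mt-Atp6 and mt-Atp8 of the ATP synthase by -1.81 and -1.98. mt-Co1, the catalytic subunit of cytochrome c oxidase, was the exception, at 12.20 and 11.91 log2 CPM in controls 4 and 5 and 12.57 and 12.53 in stiripentol 1 and 2. Its change was 0.49 ± 0.11 (SE), with an adjusted p of 0.00178 by limma, and the call was lost with the spread pooled over all 10 libraries and after quantile normalization, where the change was 0.19. mt-Co2 changed by -0.43, a call that was lost in 5 of the 14 alternatives run.

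The 12S and 16S ribosomal RNAs moved the other way. mt-Rnr1 was 6.58 and 6.11 log2 CPM in controls 4 and 5 and 8.22 and 7.82 in stiripentol 1 and 2, a change of 1.68 ± 0.17 (SE), and mt-Rnr2 changed by 0.97 ± 0.14 (SE). Together, mitochondrially encoded RNAs took 1.07% and 0.824% of reads in controls 4 and 5 and 0.789% and 0.751% in stiripentol 1 and 2, and the stiripentol shares were below both controls. Several of these mRNAs have near-identical nuclear copies, to which the authors' counting could assign reads, and their levels are uncertain to that extent. Among all 10 libraries, stiripentol 1 and 2 held the lowest levels of each of mt-Nd1 to mt-Nd6, mt-Nd4l, mt-Cytb and mt-Atp8. The fall of the complex I mRNAs was steeper than in the other 6 libraries, where their median was -1.73, and the difference was called for 5 of the 7 (background 45.3% of genes with a lower effect in the 4 libraries), and for 5 after quantile normalization (background 29.8%). mt-Co1 changed by -0.80 in the other 6 and the difference passed the test at an adjusted p of 0.00234.

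**Figure D2:**
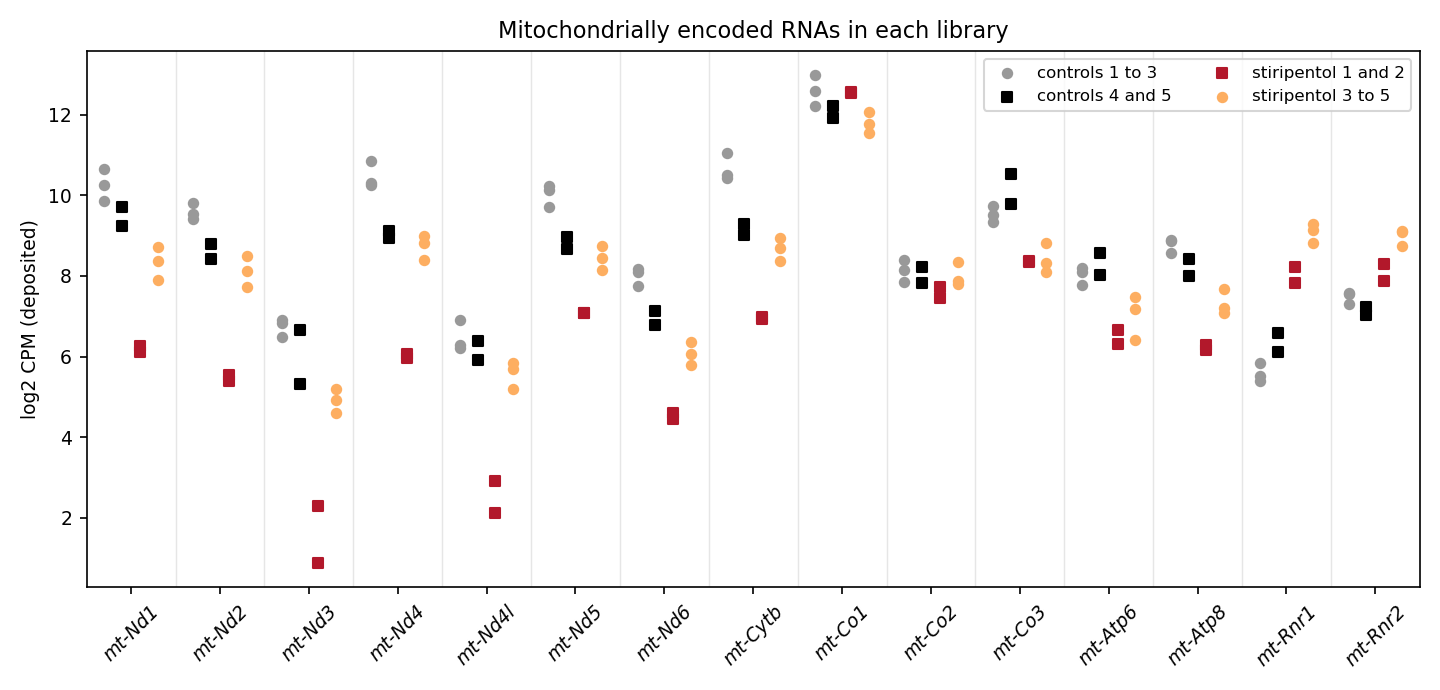
Level in log2 CPM (y axis) of the 15 tested mitochondrially encoded RNAs (x axis), 1 symbol per library. Red squares, stiripentol 1 and 2, lie below black squares, controls 4 and 5, for the complex I mRNAs mt-Nd1 to mt-Nd6, and above them for mt-Co1, mt-Rnr1 and mt-Rnr2.

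Among nuclear genes for complex I more rose than fell. Of 36 tested nuclear complex I subunits, 4 fell and 16 rose while the rest did not pass (background 46.5% lower and 25.7% higher, also for the lists that follow), with a median of 0.18. None of the 36 was called at 2-fold or more. Their mean level was 5.93 and 5.71 log2 CPM in controls 4 and 5 and 6.03 and 5.92 in stiripentol 1 and 2, so the sides overlapped. Ndufs8, an iron-sulfur subunit, changed by 0.81 ± 0.12 (SE) and Ndufb2, an accessory subunit, by -0.72 ± 0.13 (SE). Of 76 mitochondrial ribosomal protein genes, 11 fell and 39 rose, with a median of 0.35. Among 27 genes of mitochondrial RNA synthesis and processing 12 fell and 7 rose, shares near those of all genes, and the list's median of -0.17 turned positive under TMM. Twnk, the mitochondrial DNA helicase, was 5.52 and 5.58 log2 CPM in controls 4 and 5 and 2.57 and 3.26 in stiripentol 1 and 2, a change of -2.64 ± 0.19 (SE), while Tfb1m, the methyltransferase of the 12S ribosomal RNA, rose by 1.52. Mitochondrial chaperones and proteases, a list chosen after values had been seen, had 11 of 14 members higher. Hspa9, the main matrix chaperone of protein import, was 9.14 and 9.13 log2 CPM in controls 4 and 5 and 11.26 and 11.17 in stiripentol 1 and 2, a change of 2.08 ± 0.092 (SE), and Lonp1, a matrix protease, changed by 1.81 ± 0.093 (SE). Of the 13 genes of complex II and the other ubiquinone-reducing dehydrogenases, 3 fell and 3 rose. Of 15 complex I assembly factors, 5 fell and 6 rose, among them Ndufaf6 at 1.71 and Ndufaf1 at -1.24. Of 78 cytosolic ribosomal protein genes, 75 rose and 0 fell, by a median of 0.56 in the deposited values and 0.36 after quantile normalization.

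Genes that ATF4 is known to induce were higher in most cases, and a few were lower. Slc3a2, the heavy chain shared by several amino acid exchangers, was 8.32 and 8.18 log2 CPM in controls 4 and 5 and 11.58 and 11.59 in stiripentol 1 and 2, a change of 3.34 ± 0.096 (SE) with an adjusted p of 4.78e-09, which is 10.1-fold. Asns, asparagine synthetase, was 7.44 and 7.22 log2 CPM in controls 4 and 5 and 10.06 and 9.95 in stiripentol 1 and 2, and Mthfd2, the mitochondrial one-carbon enzyme, was 5.86 and 5.74 log2 CPM in controls 4 and 5 and 8.44 and 8.35 in stiripentol 1 and 2. Their changes were 2.68 ± 0.11 (SE) and 2.59 ± 0.10 (SE). The control and stiripentol values did not overlap for either gene, which sets neither apart. Of all 12306 genes tested, 3993 were higher and 6686 lower without overlap. Cth, which makes cysteine from cystathionine, changed by 3.17 ± 0.15 (SE), and Atf4 itself by 1.56 ± 0.093 (SE). The transcription factor Ddit3 rose by 2.00 and Nupr1, a stress-induced chromatin protein, by 2.14. Among the tRNA synthetases, Wars rose by 1.88, Gars by 1.71 and Aars by 1.46. In all, 26 of 39 tested members rose (background 25.7%) and 7 fell, with a median of 1.18, or 1.43 after TMM. The members that fell included Stc2, a secreted glycoprotein, at -2.97, the cystine transporter Slc7a11 at -1.56 and the glutamine transporter Slc38a2 at -1.54, and Chac1, a glutathione-degrading enzyme, changed by -0.24 with an adjusted p of 0.188. Against the other 6 libraries the effect was higher for 20 of the members and lower for 7 (background 18.1% and 45.3%), or for 18 and 5 after quantile normalization (background 30.2% and 29.8%). Among the 20 was Asns, which changed by 0.86 there (adjusted p of the difference 2.83e-06). For Aldh1l2, at 2.39 and 2.36, the difference did not pass, with an adjusted p of 0.937.

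The element that ATF4 is known to bind, read here as TGATGNAA, was searched for on both strands of the promoters of these genes. The search covered the 250 bases before each RefSeq gene start on GRCm38.p6. The letters were in the window of 10 of the 35 members with a promoter entry, and in 3.91% of all 27025 symbols with one. Of these 10, 6 rose and 2 fell with stiripentol. A match is a description of letters and says nothing about binding. The stretches around 6 of them, written 5′ to 3′ along the gene's strand with the match in capitals (TGATGNAA or its reverse complement TTNCATCA; stretches are cut where the gene starts), follow. They are shown to let the element be compared between a member that fell (Slc7a11, which holds a second match) and 5 that rose.
Asns: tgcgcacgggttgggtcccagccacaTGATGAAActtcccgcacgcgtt
Aars: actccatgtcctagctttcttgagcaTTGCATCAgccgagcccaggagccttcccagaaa
Nupr1: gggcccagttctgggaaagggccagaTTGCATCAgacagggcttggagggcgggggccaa
Pck2: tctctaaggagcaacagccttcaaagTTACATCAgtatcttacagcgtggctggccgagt
Gars: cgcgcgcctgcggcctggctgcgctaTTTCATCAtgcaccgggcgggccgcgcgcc
Slc7a11: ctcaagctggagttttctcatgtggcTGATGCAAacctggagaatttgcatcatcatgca
The windows lie at chr6:7693210-7693258 (minus strand) for Asns, chr8:111033704-111033763 (plus strand) for Aars, chr7:126625547-126625606 (minus strand) for Nupr1, chr14:55540137-55540196 (plus strand) for Pck2, chr6:55037945-55038000 (plus strand) for Gars and chr3:50443646-50443705 (minus strand) for Slc7a11. Aars and Nupr1 share TTGCATCA, Gars has TTTCATCA and Pck2 has TTACATCA. Asns holds the element on the gene's own strand, and Slc7a11 holds it in both directions, since its second match, left in lower case above, reads as in Aars and Nupr1.

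**Figure D3:**
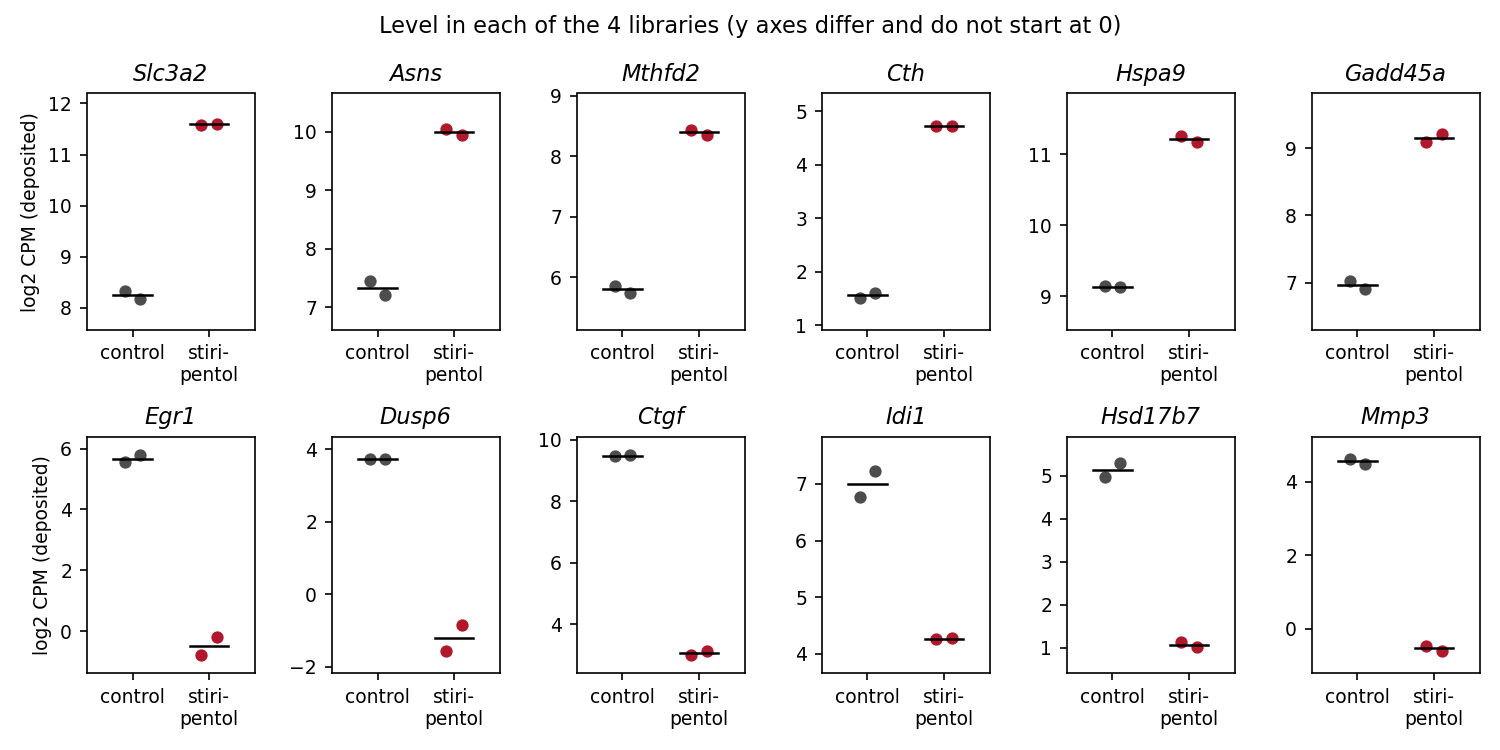
Level in log2 CPM (y axis) of 12 genes in controls 4 and 5 (dark points) and stiripentol 1 and 2 (red points), with the mean of each pair as a bar. The pairs are far apart for each gene; Slc3a2, Asns, Mthfd2, Cth, Hspa9 and Gadd45a are higher in the stiripentol libraries, and the other 6 are lower.

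Genes of mitosis rose as a group. All 37 tested members were called higher (background 25.7%), 26 of them by 2-fold or more (background 6.15%), and the median change was 1.30 (1.54 after TMM). Cdc25c, a phosphatase that activates CDK1, was 3.11 and 3.17 log2 CPM in controls 4 and 5 and 5.73 and 5.50 in stiripentol 1 and 2, a change of 2.48 ± 0.13 (SE). Nek2, a centrosome kinase, was 4.87 and 4.85 log2 CPM in controls 4 and 5 and 6.85 and 6.84 in stiripentol 1 and 2, and Top2a, the topoisomerase that separates sister chromatids, was 7.89 and 8.32 log2 CPM in controls 4 and 5 and 9.94 and 9.62 in stiripentol 1 and 2. Their changes were 1.98 ± 0.11 (SE) and 1.67 ± 0.15 (SE). The control values of Top2a lay further apart than those of Nek2. In the other 6 libraries the median change of the list was 0.33, and the difference between the sets was called for 32 of 37 (background 18.1%), and for 35 after quantile normalization (background 30.2%). Of 41 tested DNA replication genes, 12 fell and 14 rose (background 46.5% and 25.7%), with Mcm5, a helicase subunit, at 1.58 and Gins3, of the same helicase, at -1.87. Of 25 cell cycle brakes and p53 targets 12 fell and 11 rose (background 46.5% and 25.7%), with a share lower near that of all genes, and the list's median of -0.11 was positive after TMM. Gadd45b and Gadd45a, stress sensors that restrain CDK1, rose by 2.48 and 2.18, Bbc3, a proapoptotic BH3 protein, by 2.29 and Cdkn1a, a CDK inhibitor, by 1.05. Ccnd1, the G1 cyclin D1, was 7.74 and 7.81 log2 CPM in controls 4 and 5 and 5.40 and 5.56 in stiripentol 1 and 2, a change of -2.30 ± 0.11 (SE).

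Sterol synthesis genes fell in nearly every case. Hsd17b7, an enzyme of the later part of cholesterol synthesis, was 4.96 and 5.30 log2 CPM in controls 4 and 5 and 1.14 and 1.00 in stiripentol 1 and 2, and Idi1, the isomerase that makes dimethylallyl diphosphate, was 6.78 and 7.23 log2 CPM in controls 4 and 5 and 4.26 and 4.28 in stiripentol 1 and 2. Their changes were -4.06 ± 0.17 (SE) and -2.73 ± 0.15 (SE). Stard4, a carrier of sterols, was 6.46 and 6.87 log2 CPM in controls 4 and 5 and 4.42 and 4.52 in stiripentol 1 and 2, and Srebf2, which encodes the factor SREBP2, changed by -0.51 ± 0.11 (SE), a call lost after TMM scaling. In all, 21 of 23 members fell and 1 rose (background 46.5% and 25.7%), with a median of -1.69. Insig1, which retains SREBP in the endoplasmic reticulum, was the riser, at 0.45 ± 0.10 (SE). Hsd17b7 changed by -2.45 in the other 6 libraries (adjusted p of the difference 6.87e-05 by limma), and Idi1 by -2.68, where the difference did not pass (adjusted p 0.891). Of 14 fatty acid synthesis genes, 10 fell and 1 rose (background 46.5% and 25.7%), with Elovl6, an elongase, at -2.88 and Acly, the ATP citrate lyase, at -1.62. Srebf1 rose by 0.70.
The sterol regulatory element, read as TCACNCCAC on either strand, was within the 250 bases upstream of 1 of 16 listed genes with an entry, against 1.22% of all symbols. That gene was Hmgcs1, the first committed enzyme, at chr13:119690188-119690248 (plus strand); its window is shown for comparison with the ATF4 windows, with the match in capitals.
Hmgcs1: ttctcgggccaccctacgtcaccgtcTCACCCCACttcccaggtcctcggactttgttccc
Hmgcs1 was 6.72 and 7.30 log2 CPM in controls 4 and 5 and 5.59 and 5.92 in stiripentol 1 and 2, a change of -1.25 ± 0.18 (SE).

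Glycolysis, hypoxia targets and NRF2 targets fell here while their medians were above 0 in the other 6 libraries. Pfkl, the liver type of phosphofructokinase, was 7.99 and 7.92 log2 CPM in controls 4 and 5 and 4.72 and 4.79 in stiripentol 1 and 2, a change of -3.20 ± 0.11 (SE), and Ldha, which reduces pyruvate to lactate, was 9.88 and 9.82 log2 CPM in controls 4 and 5 and 7.76 and 7.71 in stiripentol 1 and 2, a change of -2.11 ± 0.094 (SE). Of 20 glycolysis genes, 14 fell and 2 rose (background 46.5% lower and 25.7% higher, as for the hypoxia and NRF2 lists), with a median of -1.01. Of the 18 hypoxia-inducible targets, 13 fell and 1 rose. Pdk1, the kinase that shuts off pyruvate dehydrogenase, was 7.40 and 7.41 log2 CPM in controls 4 and 5 and 4.47 and 4.47 in stiripentol 1 and 2, a change of -2.93 ± 0.11 (SE), and Hif1a itself changed by 0.22 with an adjusted p of 0.116. Of 28 NRF2 targets, 22 fell and 1 rose. Srxn1, which repairs peroxiredoxins, was 7.54 and 7.42 log2 CPM in controls 4 and 5 and 5.26 and 5.55 in stiripentol 1 and 2, and Gclc, the catalytic subunit that makes glutathione's precursor, was 8.49 and 8.35 log2 CPM in controls 4 and 5 and 6.47 and 6.89 in stiripentol 1 and 2. The medians over the other 6 were 0.22, 0.18 and 0.80 in that order, against -1.01, -0.70 and -1.03 here. A lower effect in the 4 libraries was called for 15, 14 and 24 members (background 45.3%), and after quantile normalization for 15, 14 and 24 (background 29.8%). Hmox1, the heme oxygenase, changed by -1.31 here and by 2.40 there, and the difference had an adjusted p of 1.28e-05. Of the NRF2 list, 15 genes were called with opposite signs in the sets (background 13.1%), and 12 after quantile normalization (background 11.7%).

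**Figure D4:**
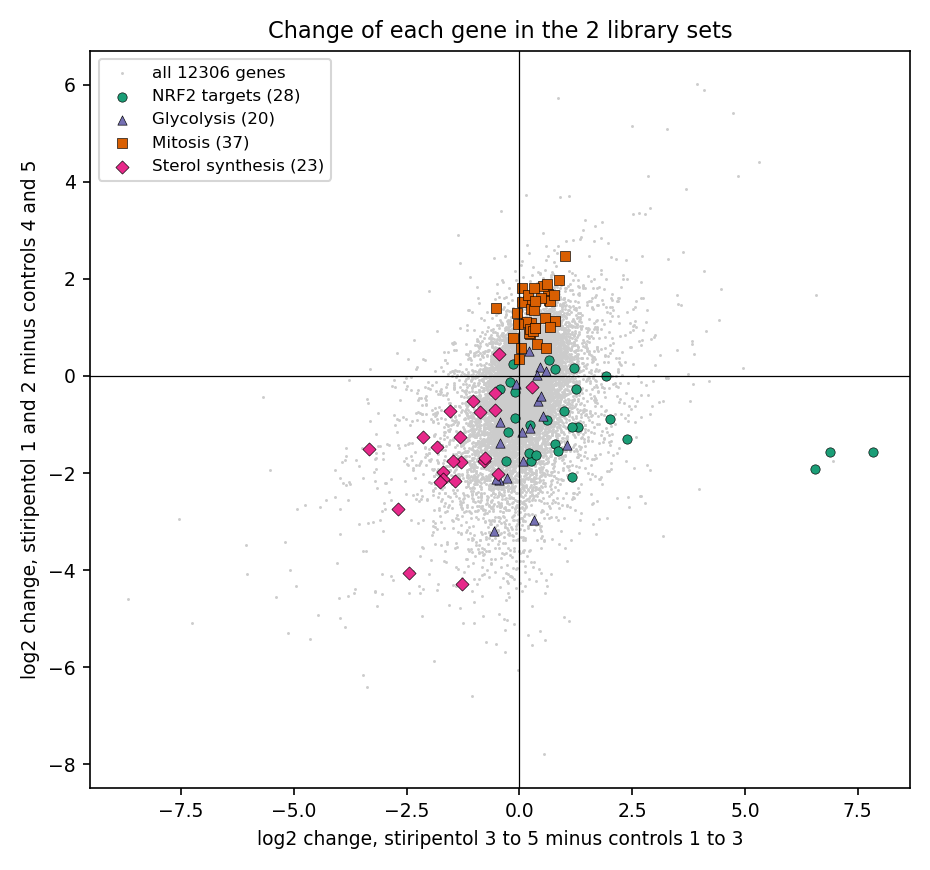
Change of each of the 12306 tested genes with stiripentol in controls 1 to 3 and stiripentol 3 to 5 (x axis, log2) against the change in controls 4 and 5 and stiripentol 1 and 2 (y axis, log2). Mitotic genes lie high and near 0 on the x axis, with list medians of 1.30 and 0.33; NRF2 targets lie mostly to the lower right, with list medians of -1.03 and 0.80.

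Immediate early genes and genes of matrix and secreted signals fell. Egr1, a zinc-finger factor induced by growth factor signals, was 5.57 and 5.78 log2 CPM in controls 4 and 5 and -0.78 and -0.18 in stiripentol 1 and 2, a change of -6.16 ± 0.21 (SE) with an adjusted p of 1.24e-08. Dusp6, a phosphatase for ERK, was 3.74 and 3.71 log2 CPM in controls 4 and 5 and -1.58 and -0.85 in stiripentol 1 and 2, and Fosl1, an AP-1 subunit, was 5.40 and 5.58 log2 CPM in controls 4 and 5 and 1.18 and 1.54 in stiripentol 1 and 2. Of 26 immediate early genes, 23 fell and 0 rose (background 46.5% lower and 25.7% higher, also for the lists that follow), with a median of -1.63. Ctgf, a secreted target of YAP, fell from 9.47 and 9.49 to 3.01 and 3.13 log2 CPM. Of 20 matrix proteases and inhibitors, 18 fell and 1 rose, and of 27 collagen and matrix genes, 24 fell and 1 rose. Mmp3, stromelysin, was 4.62 and 4.50 log2 CPM in controls 4 and 5 and -0.45 and -0.60 in stiripentol 1 and 2. Lox, which cross-links collagen, was 5.85 and 6.03 log2 CPM in controls 4 and 5 and 3.00 and 2.83 in stiripentol 1 and 2, and Col1a1, the main chain of type I collagen, was 7.80 and 8.33 log2 CPM in controls 4 and 5 and 5.57 and 5.30 in stiripentol 1 and 2. Their changes were -5.09 ± 0.19 (SE), -3.02 ± 0.13 (SE) and -2.63 ± 0.16 (SE). Col1a1 changed by 0.86 in the other 6 libraries (adjusted p of the difference 0.00011), and Fn1, fibronectin, rose here by 0.70, a call lost after quantile normalization. The fibroblast marker list, with 5 of 8 members tested, held 3 lower and 1 higher, and its summed level was 378 and 490 CPM in the controls and 148 and 148 with stiripentol, with Pdgfra at 1334 to 3747 reads. The part of such cells in the matrix changes was not tested. Of 19 chemokines and cytokines, 16 fell and 1 rose, with Il33 at -3.09 and Ccl2 at -2.92. Of 26 interferon-response genes 18 fell and 3 rose. Actin and serum response factor targets, a list chosen after values had been seen, had 17 of 20 members lower. Acta2, smooth muscle actin, was 8.34 and 8.39 log2 CPM in controls 4 and 5 and 4.76 and 4.68 in stiripentol 1 and 2, a change of -3.64 ± 0.10 (SE).

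Among genes that reached a mean of 3 log2 CPM on at least 1 side, the 12 largest rises began with Akr1b7 and the 12 largest falls with Ctgf, described above. Akr1b7, an aldo-keto reductase, rose from -0.97 and -2.21 to 4.45 and 4.39 log2 CPM. It had 30 and 4 reads in controls 4 and 5, so the size of its rise depends in part on the prior. Avil, the actin-binding protein advillin, was -0.93 and -0.59 log2 CPM in controls 4 and 5 and 4.66 and 4.65 in stiripentol 1 and 2, and Arhgap33, a GTPase-activating protein, was 1.58 and 1.37 log2 CPM in controls 4 and 5 and 6.65 and 6.62 in stiripentol 1 and 2. Their changes were 5.42 ± 0.20 (SE) and 5.16 ± 0.14 (SE). Wfdc3 was called higher too, but had 1 read in control 5, so its fitted change depends on the prior. The 10 genes with the largest difference of effect between the sets and opposite signs began with Gsta1 and Gsta2, glutathione transferases of near-identical sequence whose reads could be split by the authors' counting. Gsta2 was 5.13 and 5.20 log2 CPM in controls 4 and 5 and 3.30 and 3.22 in stiripentol 1 and 2, a change of -1.91 ± 0.13 (SE), and changed by 6.56 in the other 6. Padi3, a protein-arginine deiminase, changed by -3.31 here and by 3.19 there. Across all genes, the interaction test called 5569 effects lower in the 4 libraries (45.3%) and 2223 higher (18.1%), and quantile normalization gave 3671 and 3716. The sets were seen in these values, so these p-values are not independent of that choice. In the fit of all 10 libraries, 186 genes higher by 2-fold or more were shared, 24.7% of the 753 here and 20.97% of the 887 there, and 524 genes lower by 2-fold or more were shared, 17.2% of the 3047 here and 67.1% of the 781 there.

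Genes with few exons had lower changes in these 4 libraries. Among 11238 protein-coding nuclear genes, the 197 with 1 exon had a median change of -1.29, the 400 with 2 exons -1.13, the 582 with 3 exons -0.55 and the 3381 with 11 to 20 exons -0.17, while the 1591 with over 20 exons had -0.29. Transcript length moved with the change as well, from a median of 0.027 in the fifth of genes with the shortest transcripts to -0.55 in the fifth with the longest. At 2-fold or more, 59.9% of the 1-exon genes and 54.8% of the 2-exon genes were lower, against 19.7% with 11 to 20 exons (background 24.8%). Rhob, a small GTPase encoded by 1 exon, was 6.11 and 6.09 log2 CPM in controls 4 and 5 and 1.64 and 2.20 in stiripentol 1 and 2, a change of -4.18 ± 0.18 (SE). Zcchc3, also of 1 exon, was 3.17 and 2.92 log2 CPM in controls 4 and 5 and -2.31 and -1.84 in stiripentol 1 and 2. The level of 1-exon genes, taken as their median minus that of genes with 11 to 20 exons, was -3.04 and -2.99 in stiripentol 1 and 2 and lay between -2.02 and -1.57 in the other 8 libraries. Controls 4 and 5 and also stiripentol 3 to 5, given the same drug, were among these 8. Every change in the 4 libraries has stiripentol 1 and 2 on one side, so a property of these 2 libraries and an effect of the drug in them cannot be told apart. In the other 6 libraries the same order was present over a narrower range. There the median change was -0.33 for 1 exon, -0.18 for 2 exons, -0.019 for 3 exons and 0.099 for 11 to 20 exons. The Zfp genes, zinc-finger factors, had 209 of 304 members lower and 44 higher, with a median of -0.99 (background 46.5% lower and 25.7% higher). Taken against genes with a like number of exons, the median of the immediate early genes was -0.64, of sterol synthesis -1.40, of NRF2 targets -0.85, of mitosis 1.49 and of ATF4 targets 1.36, so the median of the immediate early genes shrank the most of these 5. Mitochondrially encoded mRNAs also have 1 exon, and the part of this pattern in their changes was not tested.

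**Figure D5:**
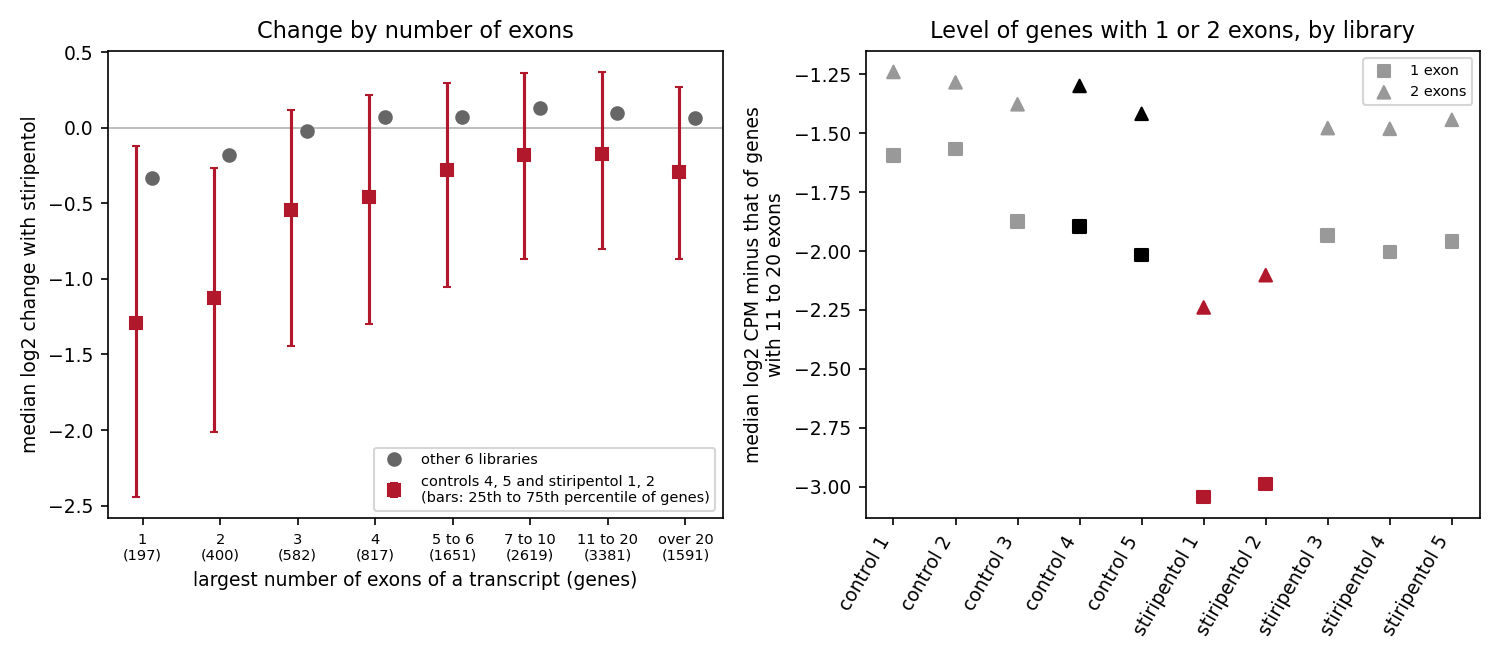
Left, median log2 change with stiripentol (y axis) of protein-coding nuclear genes by largest exon number of a transcript (x axis, genes in brackets), with 25th to 75th percentile bars for the 4 libraries and grey points for the other 6. Right, median log2 CPM of genes with 1 exon (squares) or 2 exons (triangles) minus that of genes with 11 to 20 exons, in each library; stiripentol 1 and 2 (red) lie lowest, at -3.04 and -2.99 for 1 exon.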

How the data were processed

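RNA sequencing libraries of mSCLC-2405 were compared, 2 with stiripentol (1 and 2) against 2 controls (4 and 5), named as in the sample records. In the study's own table the same values are numbered 1 and 2 on each side. The authors deposited log2 CPM per gene with a prior of 0.837 to 2.38 reads, made with GENAVi per the methods, and the submitters' processing notes name build mm10. The aligner and annotation are not given in the sources used here. The value of 0 reads is -4.82 in controls 1 to 3 and -4.74 in the other 7, so controls 1 to 3, whose levels enter only the changes in the other 6 libraries and the interaction, the mean filter and the scaling alternatives, may have been scaled apart. Columns of the authors' own comparison (p-values, folds, group means) were not used. Whole reads were recovered from 100% of the deposited values within 0.05 of a whole number, totals 22375625 to 65299372. The precision that this depth gives covers counting error only.

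limma 3.58.1 (R 4.3.3, mean-variance trend, Benjamini-Hochberg) was run on the deposited values of the 4 libraries for the 12306 genes with a mean above 0 over all 10, and an interaction of treatment and library set on all 10. Exon numbers came from GENCODE M21 and promoters from RefSeq on GRCm38.p6. Alternatives were TMM scaling (computed here from the recovered reads), quantile scaling, other filters, log2(CPM + 1) and leaving out each library, and thinning, exon-matched medians and a replicate block were added after the values were seen. On simulated data with 200 of 12306 genes changed, the 4-library fit called 92 of 100 at 2-fold, 100 of 100 at 4-fold and 21 unchanged genes. Far fewer genes changed in the simulation than were called in the data, so it cannot vouch for the calls made there. Named genes were the 12 largest rises and falls, 8 by CPM change, 4 per list with its regulator, mitochondrial RNAs and 10 with opposite effects. Other genes named in the text, the exon-number comparison and the promoter search were chosen after values were seen, and fold changes of low genes are understated by the prior. Some genes are not reported here. The members, library sets and lists were chosen with earlier results of these data known.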

Additional observations from a re-analysis of the deposited data

Results flagged for a closer look

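Control 5 held 22375625 reads, lower than the other 4 controls by more than their spread allows under Dixon's test, which flags about 1 in 20 groups by chance. The effect of stiripentol differed between the 4 libraries and the other 6, with each set called and the signs opposite, for 10 genes named by the size of the difference. The differences of log2 change, 4 libraries minus the other 6, were Gsta1 (-8.47), Gsta2 (-8.47), Padi3 (-6.49), Fgf1 (-5.96), Dok7 (-5.40), Cdh16 (-5.17), Ppp1r26 (-5.04), Dlx3 (-4.90), Acta1 (-4.88) and Trim54 (-4.84). All 10 fell in the 4 libraries and rose in the other 6. The sets were noticed in the same values, and no cause was tested.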

How the results depend on the processing

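Leaving out 1 of the 4 libraries left 5194 to 5731 genes lower and 2716 to 2891 higher, where the remaining library of a side is assumed to vary like the others. Requiring a 2-fold change left 3050 and 757, and of these counts the lower was 1854 after quantile normalization, and the higher was 1565 after quantile normalization, 1322 after TMM and 1412 with no filter. Leaving out a library gave 2782 to 3317 and 741 to 821. For the difference between the sets, leaving out a library gave 4895 to 6088 lower and 1912 to 2650 higher, and quantile normalization gave 3671 and 3716. Further settings were TMM, quantile normalization, totals without the top 10 genes, log2(CPM + 1), the filters, the pooled spread and thinning. Only for counts of the 4 libraries without a fold threshold did all of them stay within 1.5 times. The closest to that limit was quantile normalization, with 4736 genes higher against 3158 as reported. Of 222 named genes, 203 kept direction and call under every alternative run. These medians and genes changed sign, and the cause was not tested. Complex II and alternative ubiquinone dehydrogenases went from -0.0137 to 0.19 (quantile normalization), 0.23 (TMM scaling), 0.16 (exon-matched medians), -0.0324 to 0.0348 (leaving out a library). Mitochondrial RNA synthesis and processing went from -0.17 to 0.0645 (quantile normalization), 0.0735 (TMM scaling), 0.000134 (exon-matched medians). Fatty acid oxidation went from -0.13 to 0.11 (TMM scaling), 0.0397 (exon-matched medians). Cell cycle brakes and p53 targets went from -0.11 to 0.24 (quantile normalization), 0.13 (TMM scaling), 0.0945 (exon-matched medians), -0.35 to 0.0439 (leaving out a library). Autophagy went from -0.0176 to 0.0765 (quantile normalization), 0.23 (TMM scaling), 0.25 (exon-matched medians), -0.15 to 0.0874 (leaving out a library). Glucose-sensing and nutrient-sensing regulators went from -0.12 to 0.0806 (quantile normalization), 0.12 (TMM scaling), 0.11 (exon-matched medians). Ndufa1 went from -0.32 to 0.23 (quantile normalization). Dhodh went from -0.66 to 0.19 (quantile normalization). Nfe2l2 went from -0.13 to 0.11 (TMM scaling), -0.29 to 0.0288 (leaving out a library). Mitf went from -0.74 to 0.099 (quantile normalization). Ulk1 went from -0.0913 to 0.0601 (quantile normalization), 0.15 (TMM scaling), -0.33 to 0.15 (leaving out a library). No result of a count model such as edgeR or DESeq2 is given here, because the deposited unit is log2 and count models are kept for deposited counts. The sample records give the compared libraries no shared replicate number, but the study's own table numbers the same values 1 and 2 on each side. With that number as a replicate block (control 4 with stiripentol 1, control 5 with stiripentol 2), chosen after seeing the data, 5982 genes were lower and 3396 higher, and of the 222 named genes the call of Hif1a alone changed, being gained. The differences within the 2 sides correlated at 0.113 across genes, and nothing says that a number marks a shared culture or day. Depth limited control 5 most, and changes resting on a few reads there are imprecise.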

Other observations

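Clock genes and host genes of small nucleolar RNAs, lists picked after values had been seen, held called genes. Nr1d1, a repressor of the clock, was 6.07 and 6.30 log2 CPM in controls 4 and 5 and 8.88 and 9.04 in stiripentol 1 and 2, a change of 2.77 ± 0.11 (SE), and Per1, a period gene, changed by 2.17. Per3, another period gene, was 4.46 and 4.57 log2 CPM in controls 4 and 5 and 2.78 and 3.04 in stiripentol 1 and 2, a change of -1.60 ± 0.15 (SE). Of 19 clock genes, 11 rose and 5 fell (background 25.7% and 46.5%). Of 13 snoRNA host genes, 10 rose and 0 fell (background 25.7% and 46.5%). Snhg12 was 3.31 and 3.04 log2 CPM in controls 4 and 5 and 6.10 and 5.99 in stiripentol 1 and 2, and Gas5 changed by 1.52 ± 0.13 (SE).
Of 14 tested neuroendocrine lineage genes, 8 fell and 3 rose, and of 12 Notch pathway genes, 7 fell and 3 rose (background 46.5% and 25.7%). Of 5 tested tuft and Pou2f3 lineage genes, 3 fell and 1 rose (background 46.5% and 25.7%), with changes from -2.15 to 5.42. Foxa2, an endoderm transcription factor, was 3.68 and 3.51 log2 CPM in controls 4 and 5 and 0.62 and 0.70 in stiripentol 1 and 2 and changed by 1.00 in the other 6 libraries, with an adjusted p of the difference of 2.22e-07 by limma. Notch3 changed by -2.24 ± 0.12 (SE), while Hey1, a target of Notch signaling, rose by 2.16.
Of 8 tested genes on a list of GABA-A, sodium and calcium channels, 7 fell and 0 rose (background 46.5% lower and 25.7% higher, also for the lists that follow). The largest fall was of the calcium channel gene Cacna1a, at -3.56, and these counts do not speak for GABA-A receptor genes alone. Of 21 endoplasmic reticulum chaperones, 2 fell and 11 rose, and of 15 cytosolic heat shock chaperones, 1 fell and 8 rose. Of 32 lysosome and vacuolar ATPase genes, 3 fell and 16 rose, with a median of 0.26, and of 32 genes of drug metabolism, 20 fell and 7 rose, with a median of -0.64. Of 16 genes of MHC class I and antigen processing, 10 fell and 2 rose.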
